A study of Arabidopsis thaliana with 4 samples.

Results

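Whole seedlings of Arabidopsis thaliana that overexpressed C3H17 (C3H17_OX) were compared with wild type seedlings (WT) on 1-colour microarrays. The comparison held 3 of the 4 arrays of the study, chosen by their labels: 2 C3H17_OX arrays and 1 WT array. Both genotypes, like the fourth array (labelled only by the allele name atc3h17-1), were in the Col-0 ecotype, were untreated, and were harvested 14 days after germination from sucrose-containing agar at 22 °C under days of 8 h light and 16 h darkness. The labels name neither the promoter that drives the transgene nor the number of lines or of pooled seedlings, and they do not say whether the C3H17_OX replicates came from separate plants.

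C3H17 encodes a CCCH zinc finger protein. Proteins of this family bind nucleic acids through a short motif of cysteines and a histidine, and plant members act in transcription or RNA turnover. The study's design text sets the overexpressor against WT. How nutrient, defence, hormone and growth pathways stood in that comparison is described here across genes.

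Per gene, the C3H17_OX arrays stood a median of 0.0293 log2 units apart, and 59 genes were at least 2-fold apart between them. The SD of a single array, taken from this pair, was 0.0948. Repeated spots of 1 probe within these arrays had a median SD of 0.0528 and 0.0454, over 18 and 17 probes. Because the labels do not say whether they came from separate plants, the C3H17_OX arrays were counted as 1 sample. Each group thus had 1 sample, no difference has a test, and an effect counts here by its size. The repeated spots of the WT array varied more, with a median SD of 0.1678. All levels below are log2 signals relative to the 75th percentile of their array, given as C3H17_OX array 1, C3H17_OX array 2 and WT. A gene was called when both C3H17_OX arrays were at least 2-fold above or at least 2-fold below WT. Of 19393 genes with signal well above background on the 3 arrays, 591 (3.05%) were called higher and 378 (1.95%) lower in C3H17_OX, and the median difference over all genes was -0.03. With background corrected by a normal-exponential model, the split was 774 higher and 223 lower. Genes with a single probe were called more often (5.85%) than genes with several (2.97%). The gene lists below were chosen with earlier results of these data known. A share of calls above that of all genes is therefore a description and no independent support. Each count of calls below is to be read beside the shares over all genes, 3.05% higher and 1.95% lower. Of 1133 distinct list loci measured, 123 were called higher and 69 lower.

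The targeted gene, C3H17, had 3 probes. It was taken to be locus AT2G02160 from general knowledge of the family, since neither the labels nor the RefSeq table pair the name with a locus. Probe A_84_P803253 read 1.18 and 1.19 in C3H17_OX and -1.01 in WT, which made it 4.57-fold higher. Probe A_84_P847169 read -2.25 and -2.27 in C3H17_OX and -4.75 in WT, which made it 5.61-fold higher. Probe A_84_P221496 read 2.49 and 2.54 in C3H17_OX and 2.54 in WT, so 2 of the 3 probes separated the genotypes and 1 did not. In atc3h17-1, A_84_P847169 read -4.25, and the other probes were not well above background. Where the probes lie in the transcript was not analysed here.

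Markers of the tissues in a seedling were read first, because a whole seedling mixes organs. Of 19 measured root markers, 3 were called lower and none higher, against 1.95% and 3.05% of all genes. Their median difference was -0.51, and 18 lay below WT. Their summed signal, in multiples of the array's 75th percentile, was 21.4 and 21.2 in C3H17_OX, 16.7 in atc3h17-1 and 25.7 in WT. That sum is carried mostly by PYK10. Its log2 levels were 3.62 and 3.63 in C3H17_OX, 3.54 in atc3h17-1 and 3.86 in WT. The median of the same markers in atc3h17-1 minus WT was -2.0 (log2), with 14 at least 2-fold lower. PLT1 and PLT2, regulators of the root stem cell niche, were not well above background on any of the 3 arrays. Of 12 green tissue markers none was called, with a median difference of 0.13 and a summed signal of 742.2 and 731.6 in C3H17_OX, 696.5 in atc3h17-1 and 658.0 in WT. All 47 measured genes of light harvesting, the photosystems and Rubisco stayed between -0.33 and 0.59. In bulk seedlings, fewer cells of a type and less RNA per cell cannot be told apart. Where a list below has root-expressed genes, the part of the lower root markers in it was not tested.

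**Figure D1:**
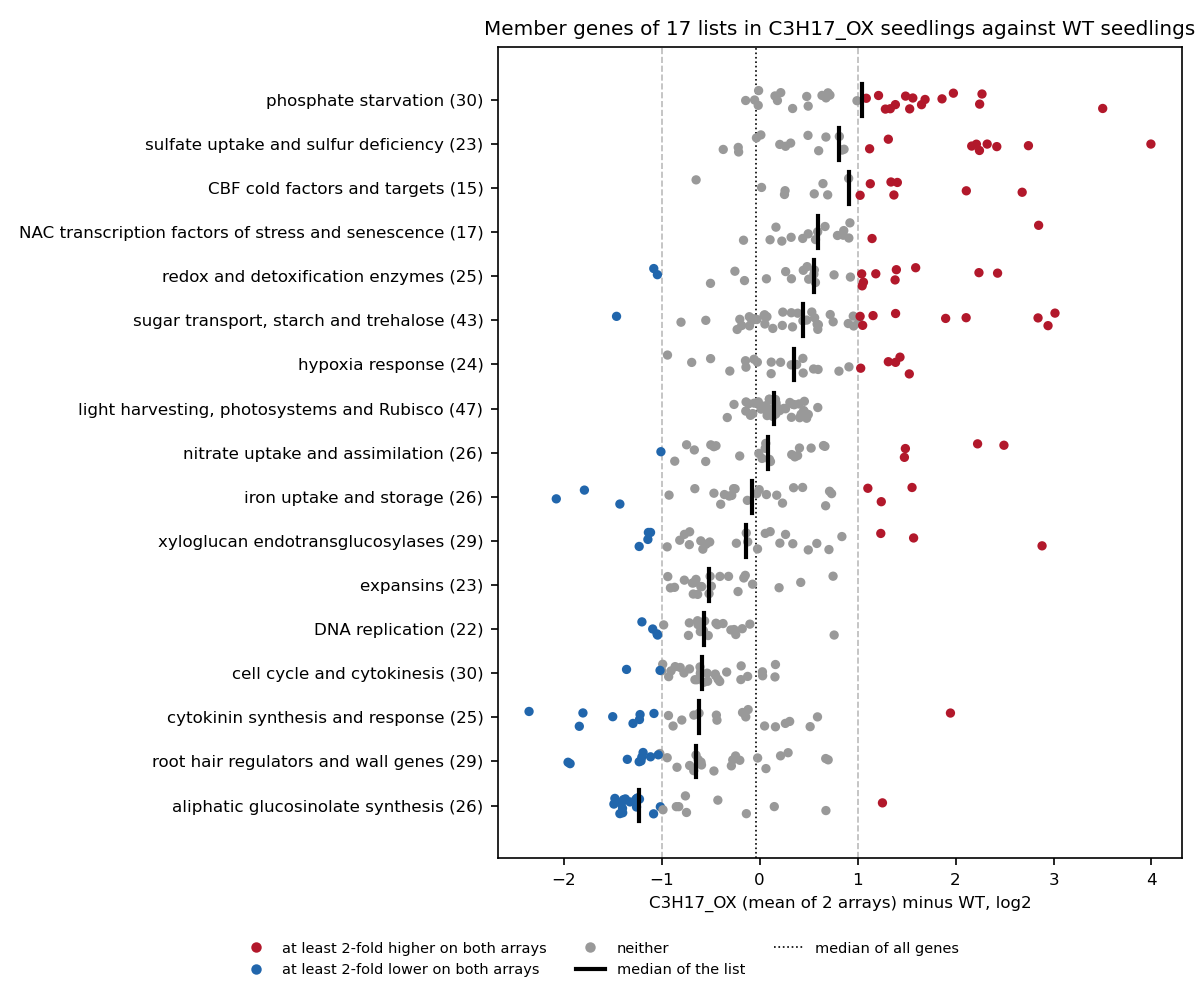
Difference between C3H17_OX (mean of 2 arrays) and WT, in log2 units, for each measured member of 17 gene lists. Each point is a gene, coloured by its call, the number of measured members stands in brackets, black bars are list medians, the dotted line is the median of all genes and dashed lines mark 2-fold. Phosphate starvation genes have the highest median (1.04) and aliphatic glucosinolate genes the lowest (-1.24) of the lists shown.

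The genes furthest above WT came from defence, detoxification, pigment and nutrient pathways. PNP-A, a secreted peptide related to plant natriuretic peptides, read 0.67 and 0.64 in C3H17_OX and -5.33 in WT, a 63.5-fold difference. PCC1, a pathogen-responsive membrane protein gene, was 45.6-fold higher on the mean of 2 probes. MRD1 read 0.78 and 0.83 in C3H17_OX and -4.38 in WT, a 36.5-fold difference. All 3 had low signal in WT, and both C3H17_OX arrays stood far above it. In atc3h17-1, PNP-A read 0.42 and PCC1 -1.45, whereas MRD1 read -3.97, close to its WT level.

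Glutathione transferases were also among these genes, enzymes that couple glutathione to reactive compounds. GSTU11 was 51.7-fold higher, second to PNP-A, and GSTU4 27.7-fold and GSTL1 17.6-fold higher in C3H17_OX. In atc3h17-1 minus WT, GSTU11 differed by 4.82 (log2), GSTU4 by 3.22 and GSTL1 by 2.79. DIN2, a beta-glucosidase induced in darkness, was 27.4-fold higher, and GEA6, a late embryogenesis abundant protein of the seed, 26.2-fold. The anthocyanin regulators PAP1 (AT1G56650) and MYB90 were 19.6-fold and 10.3-fold higher. ABCG40, a transporter that imports abscisic acid, was 19.4-fold higher, and GRX480, a glutaredoxin that binds TGA factors, 11.5-fold on the 1 probe above background, or 2.13-fold with its dim second probe included. AT5G15500 was 11.3-fold higher. The other members of the top 15 were BGLU28 (15.9-fold) and PHT1;5 (11.3-fold), described with their pathways. WT signal was low for several of these genes, among them GEA6 (-6.16), GRX480 (-5.39), ABCG40 (-5.17) and GSTU11 (-5.12). Their folds therefore rest on a dim WT spot. In atc3h17-1 minus WT, DIN2 differed by 4.17 (log2), GEA6 by 3.37, PAP1 by 3.97, MYB90 by 3.10 and GRX480 by 3.37. There ABCG40 differed by 2.13, AT5G15500 by 1.81, BGLU28 by 3.04 and PHT1;5 by 2.95. The genes of this paragraph therefore lay above the shared WT array in both lines.

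Among the 15 genes furthest below WT, 11 have no symbol in the RefSeq table and are given by locus. AT1G49570 read -6.26 and -6.21 in C3H17_OX and -2.06 in WT, and was 18.1-fold lower. AT3G28899 was 9.34-fold, AT1G33640 8.22-fold, AT2G17080 7.48-fold and AT2G10965 7.11-fold lower. AT1G34510, AT1G52070, AT4G39530 and AT3G46300 were between 5.01-fold and 6.23-fold lower. Of the named genes, NOGC1, which encodes a nitric oxide-binding guanylate cyclase, was 5.83-fold lower and RGF2, a peptide of the root meristem, 5.08-fold. CNGC12, a cyclic nucleotide-gated ion channel with a role in immunity, read -2.53 and -2.50 in C3H17_OX, 0.09 in atc3h17-1 and 0.10 in WT, and was 6.12-fold lower in C3H17_OX.

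AT4G14270 had 2 probes that were both lower. It read 0.32 and 0.32 in C3H17_OX, 2.76 in atc3h17-1 and 2.84 in WT, and was 5.75-fold lower in C3H17_OX. AT3G21460, also with 2 probes, was 4.91-fold lower. Both C3H17_OX arrays lay far from WT for each of these genes, and for CNGC12 and AT4G14270 the mutant array did not. In atc3h17-1 minus WT, AT3G21460 differed by -0.64 (log2). The rest of the 15 lay between -3.81 (AT3G28899) and -1.64 (AT3G46300) there, with AT1G49570 at -2.28. AT3G28899 and AT1G34510 were not well above background in atc3h17-1. Apart from CNGC12, AT4G14270 and AT3G21460, these genes therefore lay far below the shared WT array in both lines.

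Many phosphate starvation genes were higher in C3H17_OX. Plants short of phosphate switch on transporters, secrete phosphatases and nucleases, and replace membrane phospholipids with galactolipids and sulfolipids, mostly through the regulator PHR1 and its SPX inhibitors. Of 30 measured members of 31, 15 were called higher and none lower in C3H17_OX, with a median of 1.04, against 3.05% of all genes called higher. The same list had a median of 0.73 in atc3h17-1 minus WT. Both lines were set against the same WT array, so their values are not independent.

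Among 8 measured phosphate transporters and exporters, 4 were called higher. PHT1;5, which moves phosphate between source and sink organs, read 0.03 and 0.07 in C3H17_OX and -3.45 in WT, an 11.3-fold difference. PHT1;8 (2.81-fold) and PHT1;9 (2.13-fold), transporters of the root, and PHO1;H1 (2.96-fold), an exporter to the xylem, were also higher. PHT1;1, the main uptake transporter of the root and a root marker here, differed by -0.05, and PHO1 by 0.50. The transporters of this list therefore differed from WT by unequal amounts.

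Phosphate salvage enzymes were higher in 4 of 6 cases. RNS1, a secreted ribonuclease, read 1.75 and 1.75 in C3H17_OX and -0.52 in WT, a 4.82-fold difference. PS2 (AT1G73010), a pyrophosphatase gene with 3 probes, read 3.13 and 3.18 in C3H17_OX and 1.18 in WT, a 3.94-fold difference. PAP17, an acid phosphatase, was 3.63-fold and PEPC1, a phosphoethanolamine phosphatase, 2.89-fold higher. The purple acid phosphatases PAP10 and PAP12 differed by 0.22 and 0.68.

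All 8 measured enzymes of lipid remodelling lay above WT, and 6 were called. NPC4, a phospholipase C that breaks down phosphatidylcholine, read -1.81 and -1.77 in C3H17_OX and -4.03 in WT, a 4.74-fold difference. MGDC and MGD2, synthases of monogalactosyldiacylglycerol, were 3.22-fold and 2.32-fold higher. SQD2, the sulfolipid synthase, was 2.61-fold higher, with PLDP2, a phospholipase D, at 2.44-fold and SRG3, a glycerophosphodiester phosphodiesterase, at 2.52-fold. SQD1 (0.72) and NPC5 (0.18) were below the threshold.

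The regulators differed less. SPX3 read 2.14 and 2.14 in C3H17_OX and 0.49 in WT and was 3.15-fold higher, while SPX1 (0.99) was just below the threshold and SPX2 (-0.01) and SPX4 (-0.14) were near WT. PHR1 differed by -0.01, PHO2, a ubiquitin-conjugating enzyme that limits phosphate uptake, by 0.16, PHF1 by 0.48 and WRKY75 by 0.64. None of these 4 was called.

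Sulfur deficiency genes were also higher. Sulfate enters through SULTR transporters, is activated and reduced by ATP sulfurylase and APS reductase, and is built into cysteine and glutathione. A separate set of genes responds when sulfur is short, among them the LSU proteins, the SDI repressors of glucosinolate synthesis, and enzymes that recover sulfur from glucosinolates and glutathione. All 23 listed genes were measured, and 9 were called higher and none lower, against 3.05% and 1.95% of all genes. The median was 0.81, with 0.18 for atc3h17-1.

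The deficiency markers carried most of the calls, 7 of 8. BGLU28, a glucosidase that degrades glucosinolates, read 3.46 and 3.49 in C3H17_OX and -0.52 in WT, a 15.9-fold difference. LSU1, with 2 probes, read 2.61 and 2.60 in C3H17_OX and -0.14 in WT, a 6.70-fold difference. ATSDI1, a repressor of aliphatic glucosinolate synthesis, read 4.76 and 4.78 in C3H17_OX and 2.35 in WT, a 5.36-fold difference. Both C3H17_OX arrays were well above WT for all of these. AT5G26220 differed by 2.32 (log2), and LSU3 was 4.74-fold, LSU2 2.49-fold and SHM7 2.18-fold higher.

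Transporters and assimilation enzymes were split. SULTR1;1, a high-affinity uptake transporter of the root, read -2.92 and -2.90 in C3H17_OX, -5.08 in atc3h17-1 and -5.13 in WT, and was 4.64-fold higher in C3H17_OX. SULTR4;2, which releases sulfate from the vacuole, was 4.48-fold higher, and SULTR1;2 differed by 0.81. None of 10 assimilation enzymes was called: APR1, APR2 and APR3 differed by 0.21, 0.32 and 0.49, and GSH1, which starts glutathione synthesis, by -0.37.

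**Figure D2:**
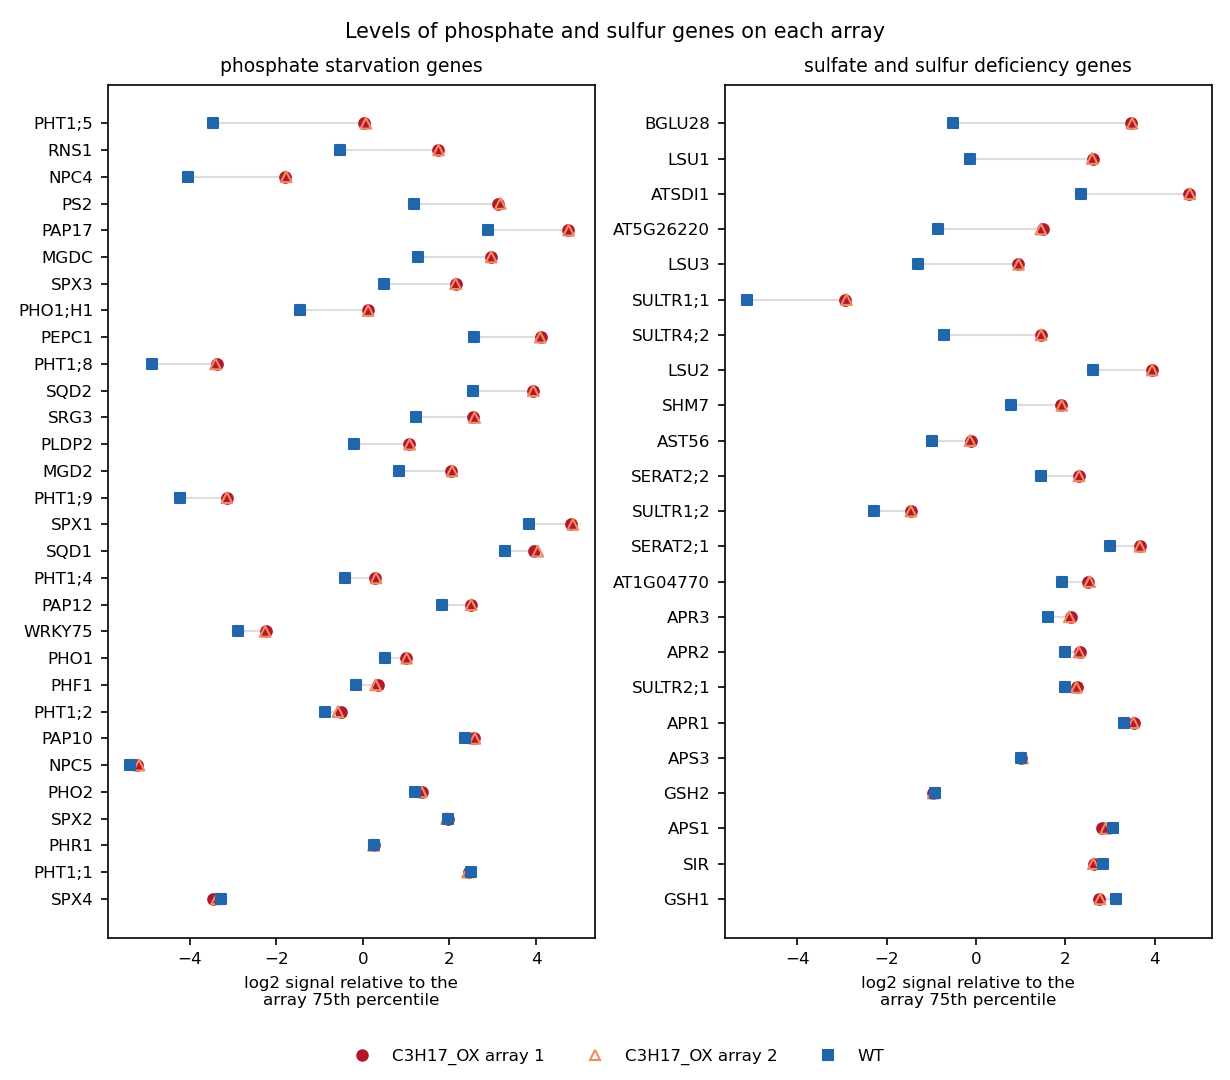
Level of each measured phosphate starvation gene (left) and sulfur gene (right) on the C3H17_OX arrays and the WT array, as log2 signal relative to the array's 75th percentile, sorted by the difference. Each symbol is 1 array. The C3H17_OX symbols overlap in most rows and lie to the right of WT for 26 of 30 phosphate and 19 of 23 sulfur genes.

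Genes of aliphatic glucosinolate synthesis were lower. These sulfur-rich defence compounds are made from methionine, whose side chain is lengthened, converted by cytochromes P450 and conjugated with glutathione, then given glucose and sulfate, and finally oxidised. Of 26 measured genes, 16 were called lower and 1 higher in C3H17_OX, and the median was -1.24, against 1.95% of all genes called lower. In atc3h17-1 the median was -0.50.

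All 9 chain elongation genes lay below WT and 8 were called. BCAT4, which starts the elongation, read 1.86 and 1.91 in C3H17_OX and 3.28 in WT, and was 2.64-fold lower. IMD1, a dehydrogenase of the same cycle with 2 probes, read 3.93 and 3.96 in C3H17_OX and 5.35 in WT, and was 2.66-fold lower. The synthases IMS2 and MAM1 differed by -1.40 and -1.01, and the plastid transporter BAT5 by -1.08. Only BCAT3, at -0.82, was not called.

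The core enzymes gave 6 calls of 12, with every difference below 0. GSTU20, a glutathione transferase, read 3.75 and 3.77 in C3H17_OX and 5.25 in WT, a difference of -1.49. CYP79F2, which forms the aldoxime, read -3.33 and -3.53 in C3H17_OX and -1.96 in WT, and was 2.78-fold lower. The sulfotransferase SOT18 read 2.62 and 2.64 in C3H17_OX and 4.06 in WT, and was 2.69-fold lower. On each of these genes the C3H17_OX arrays sat close together and below WT. CYP79F1 (-1.26), SOT17 (-1.23) and AKN2 (-1.26), a kinase that makes the sulfate donor, were also called, and CYP83A1 (-0.99) just missed. SUR1 (-0.75) and GGP1 (-0.14) also serve indole glucosinolates.

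Side chain oxidation was mixed. FMO GS-OX1 (-1.37) and FMO GS-OX3 (-1.32) were called lower and FMO GS-OX4 (1.25) higher, with FMO GS-OX2 at 0.68 and FMO GS-OX5 at 0.15. The regulators differed among themselves. MYB29 read -0.36 and -0.41 in C3H17_OX and 0.80 in WT, and was 2.27-fold lower, and MYB76 was 2.72-fold lower at a low signal. MYB28, the main activator of the pathway, read -0.34 and -0.34 in C3H17_OX and -0.18 in WT, close to equal.

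**Figure D3:**
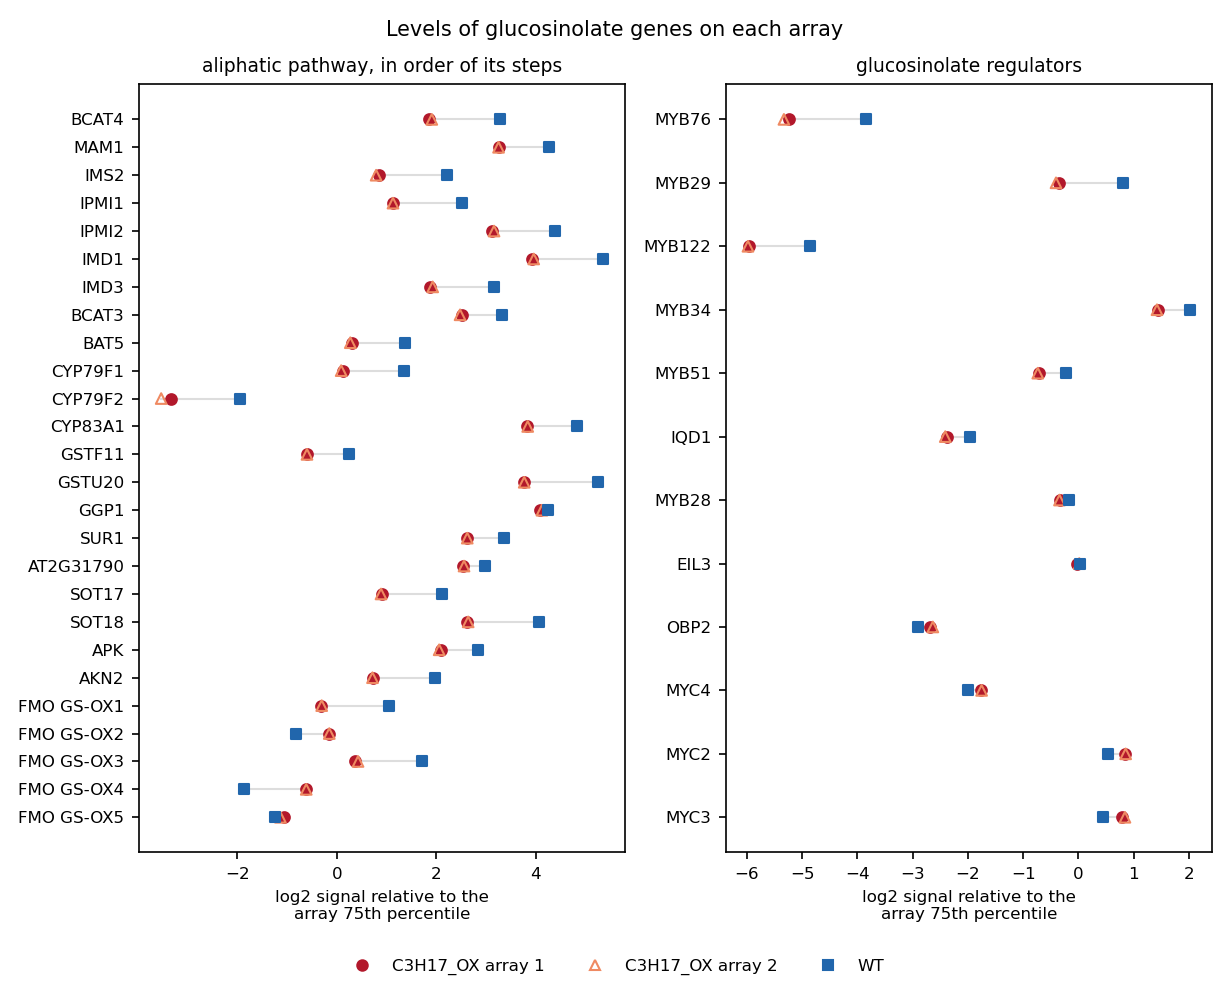
Level of aliphatic glucosinolate genes in the order of the pathway (left) and of glucosinolate regulators (right) on the C3H17_OX arrays and the WT array, as log2 signal relative to the array's 75th percentile, 1 symbol per array. In the pathway 23 of 26 genes lie left of WT in C3H17_OX, from BCAT4 through SOT18, and MYB29 and MYB76 do so while MYB28 overlaps with WT.

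Indole glucosinolates and camalexin share tryptophan and indole-acetaldoxime as precursors. Of 7 indole core enzymes 1 was called, CYP79B3 (-1.04), with CYP79B2 at -0.91 and CYP83B1 at 0.07. All 4 measured genes of tryptophan synthesis lay between -0.54 and -0.30. The camalexin branch was higher: PAD3, its last enzyme, read -1.26 and -1.25 in C3H17_OX and -4.25 in WT, a 7.97-fold difference. CYP71A12, an earlier enzyme, was 3.90-fold higher. CYP71A13 was well above background in C3H17_OX but not in WT, at least 2.06-fold higher. In atc3h17-1 minus WT, PAD3 differed by 1.21 and CYP71A12 by 0.63.

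Glucosinolate breakdown gave 3 higher genes and 1 lower of 18, against 3.05% and 1.95% of all genes. NSP5, a nitrile specifier, read 3.43 and 3.46 in C3H17_OX and 0.90 in WT, a 5.82-fold difference over 2 probes. ESP (AT1G54040), the epithiospecifier protein, was 4.39-fold higher over 2 probes, a protein of low activity in Col-0. The myrosinase TGG2 was 2.78-fold higher, and TGG1 differed by 0.69. The ER body genes of the root, PYK10 (-0.24), NAI1 (-0.67) and NAI2 (-0.51), were not called, while BGLU22 (-1.10) was. These are root-expressed genes, and PYK10 is itself on the root marker list. The part of root tissue in their levels was not tested.

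Several cytokinin genes were lower, type-A response regulators among them. Cytokinins are made by IPT enzymes, converted to the trans-zeatin form by CYP735A, sensed by histidine kinases, and act through type-B response regulators that switch on type-A regulators, a common readout of the hormone. Of 25 measured genes, 8 were called lower and 1 higher, against 1.95% and 3.05% of all genes, with a median of -0.62 and, for atc3h17-1, -0.49. All 8 measured type-A regulators lay below WT, 5 of them called.

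RR16 read -3.10 and -2.97 in C3H17_OX, -1.33 in atc3h17-1 and -1.19 in WT, and was 3.58-fold lower in C3H17_OX. ARR7 read -2.26 and -2.31 in C3H17_OX and -0.48 in WT, and was 3.49-fold lower. ARR6 was 2.83-fold, RR5 2.45-fold and ARR4 2.11-fold lower. For each of them both C3H17_OX arrays lay below WT. ARR3 (-0.93), ARR9 (-0.88) and RR3 (-0.62) were below WT and under the threshold. ARR15 was well above background in WT only, which made it at least 4.25-fold lower in C3H17_OX. RR17 read -5.53 and -5.56 in C3H17_OX, where it was well above background, and -4.94 in WT, where the brighter spot was not, so no fold was taken.

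The enzymes of synthesis and breakdown were less uniform. CYP735A2 read -6.11 and -5.95 in C3H17_OX, -6.20 in atc3h17-1 and -3.68 in WT, and was 5.11-fold lower in C3H17_OX. IPT3, a nitrate-responsive synthase of the vasculature, was 2.33-fold lower, and CKX5, an oxidase that degrades cytokinin, 2.34-fold. LOG1 (0.26), LOG7 (0.52) and IPT5 (0.05) were not called. CRF5, an ERF-type response factor, was 3.86-fold higher in C3H17_OX, and differed by 0.21 in atc3h17-1 minus WT. CYP735A2 is expressed mainly in roots. Root markers had a median difference from WT of -0.51 in C3H17_OX and -2.0 in atc3h17-1. The part of root tissue in the CYP735A2 level was not tested.

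Genes of cell division were below WT by small amounts. Of 30 cell cycle genes, 26 lay below WT with a median of -0.59. CYCB1;1 (-1.36) and the Aurora kinase AUR2 (-1.02) were the 2 called lower, against 1.95% of all genes. All 8 B-type cyclins, which act in mitosis, lay between -1.36 and -0.45. The D-type cyclins, which act at entry into the cycle, lay between -0.42 and 0.16. CYCB1;1 read -3.29 and -3.39 in C3H17_OX and -1.98 in WT.

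Of 22 DNA replication genes, 21 lay below WT with a median of -0.57. The origin recognition subunits ORC6 (-1.20) and ORC2 (-1.05), the single-strand binding protein RPA70B (-1.09) and the licensing factor CDC6 (-1.04) were called. Those 4 calls stand against 1.95% of all genes called lower. Of 6 subunits of the MCM helicase, 5 lay between -0.63 and -0.43, and MCM6, at 0.76, was the exception. In atc3h17-1 the medians were -0.26 for the cell cycle and -0.39 for replication. Few of these genes passed 2-fold.

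Cell wall loosening genes were similar in part. Of 23 expansins, 20 lay below WT with a median of -0.52 and none was called. The xyloglucan endotransglucosylases diverged, with 4 called lower and 3 higher of 29, against 1.95% and 3.05% of all genes. XTH25 read -2.74 and -2.84 in C3H17_OX and -5.67 in WT, a 7.38-fold difference, and XTH24 (1.57) and XTH6 (1.24) were also higher. XTH14 (-1.23), XTH33 (-1.14), XTH20 (-1.14) and XTH26 (-1.11) were lower, and XTH14 and XTH26 are also on the root hair list.

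Root hair genes gave 9 calls lower and none higher of 29, against 1.95% of all genes called lower, with a median of -0.65. Root hairs grow from epidermal cells under the basic helix-loop-helix factors RHD6 and RSL4, which turn on wall proteins, expansins and peroxidases. RSL4 read -5.55 and -5.60 in C3H17_OX and -3.62 in WT, and was 3.88-fold lower. PRP1, a proline-rich wall protein, read -4.57 and -4.71 in C3H17_OX and -2.71 in WT, and was 3.82-fold lower. PRP3 (-1.19), RHS12 (-1.03), RHS13 (-1.20) and RHS18 (-1.21) were called, and RHD6 (-0.24) and EXPA7 (-0.67) were not. With the normal-exponential background correction, 4 root hair genes were called lower.

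The mutant array stood further from WT than C3H17_OX for this list, with a median of -2.06, and PRP3 read -3.62 there. Genes of the Casparian strip and suberin, which belong to the root endodermis, had 1 call of 24, MYB107 (1.50), and a median of -0.18, with CASP1 at -0.77 and MYB36 at -0.95. The corresponding median in atc3h17-1 was -0.52. Root hair, Casparian and root markers share several genes, so their values are not separate evidence.

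**Figure D4:**
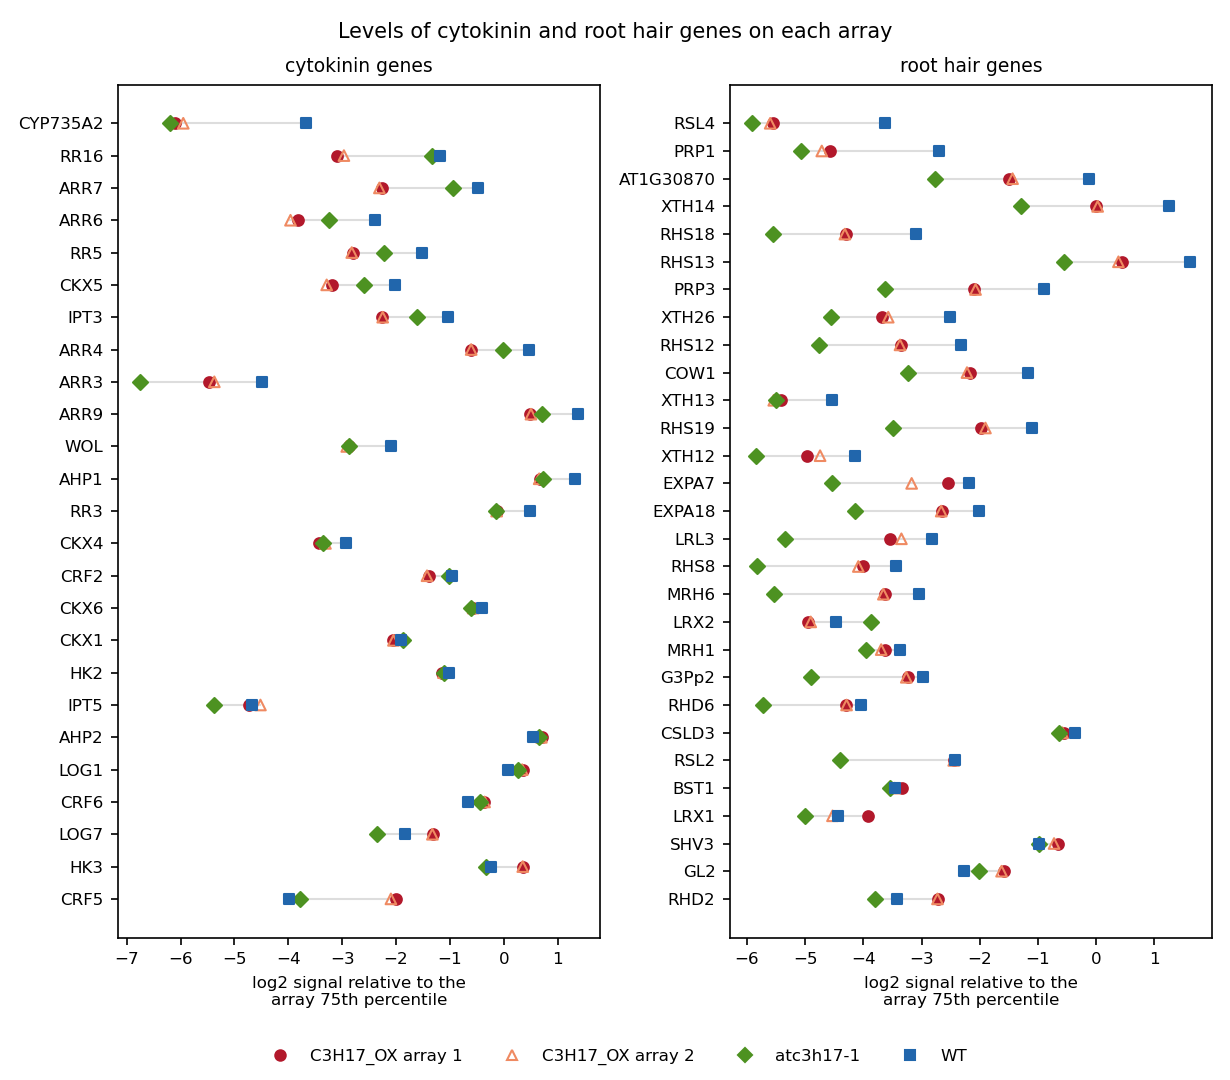
Level of each measured cytokinin gene (left) and root hair gene (right) on the C3H17_OX arrays, the atc3h17-1 array and the WT array, as log2 signal relative to the array's 75th percentile, sorted by the difference between C3H17_OX and WT. Each symbol is 1 array, and atc3h17-1 is drawn whether or not its spot was well above background. RR16 and ARR7 in C3H17_OX lie left of both other lines, while root hair genes in atc3h17-1 lie mostly left of C3H17_OX.

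Nitrogen genes showed a few large differences. ASN1, an asparagine synthetase induced in carbon shortage, read 1.83 and 1.81 in C3H17_OX and -0.67 in WT, a 5.63-fold difference over 3 probes. NRT1.8, which retrieves nitrate from the xylem, was 4.68-fold higher, and the ammonium transporters AMT1;2 (1.49) and AMT2 (1.48) were higher as well. NIA1, a nitrate reductase, differed by -1.01 and was called lower, with NIA2 at 0.11 and NIR1 at -0.55. The nitrate-responsive repressor LBD38 (-1.04) and the scaffold protein BT2 (-1.72) were also lower. Over the 26 measured members of the nitrate list the median was 0.08.

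Of 26 measured iron genes, 3 were called higher and 3 lower in C3H17_OX, against 3.05% and 1.95% of all genes. IRT2, an iron transporter of the root epidermis, read -5.32 and -5.39 in C3H17_OX and -3.28 in WT, and was 4.21-fold lower. BHLH101, a regulator of iron deficiency, was 3.45-fold lower, and the zinc transporter ZIP3 differed by -1.43. Of the higher genes, YSL2, a transporter of metals bound to nicotianamine, was 2.37-fold higher. The ferritin FER1 read 2.48 and 2.49 in C3H17_OX and 0.93 in WT over 3 probes, a 2.94-fold difference, and FER3 was 2.15-fold higher while the ferritins FER2 (0.23) and FER4 (-0.25) were not called. FRO2, the ferric reductase, differed by 0.35 and its regulator FRU by -0.12. The uptake transporter IRT1 and the regulators bHLH38, bHLH39, BHLH100 and MYB72 were not well above background on any of the 3 arrays.

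Superoxide dismutases that use different metals diverged. CSD1, the cytosolic copper-zinc enzyme, read 4.00 and 4.03 in C3H17_OX and 5.06 in WT, and CSD2, its plastid counterpart, read 2.69 and 2.70 in C3H17_OX and 3.78 in WT. They were 2.06-fold and 2.12-fold lower. FSD1, the iron enzyme, read 3.60 and 3.60 in C3H17_OX and 2.56 in WT and was 2.06-fold higher. Each of the 3 genes had 2 probes. MSD1, the manganese enzyme (-0.15), and CSD3, the peroxisomal copper-zinc enzyme (0.07), were near WT. In atc3h17-1 minus WT the differences were -0.73, -0.73 and 0.64 for CSD1, CSD2 and FSD1.

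Over the whole redox list, 9 of 25 measured genes were called higher and 2 lower, against 3.05% and 1.95% of all genes, with a median of 0.56. AOX1D, an alternative oxidase of mitochondria, read -1.79 and -1.83 in C3H17_OX and -4.24 in WT, a 5.38-fold difference, and AOX1A was also called (1.06). The glycosyltransferase UGT74E2, which acts on the auxin indole-butyric acid, was 4.72-fold higher, with UGT73B4 (1.40), UGT75B1 (1.38) and UGT73B5 (1.19) behind it. Catalases CAT1 (0.56), CAT2 (0.55) and CAT3 (0.48) were not called.

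The glutathione transferase families were not uniformly higher. Of 25 measured tau members, 5 were called higher and 1 lower, against 3.05% and 1.95% of all genes. Their median of 0.03 took the opposite sign when arrays were scaled to their median. GSTU7 (2.08), GSTU24 (1.33) and GSTU1 (1.11) joined GSTU11 and GSTU4, and GSTU3, detected in C3H17_OX only, was at least 9.10-fold higher. GSTU19 (-0.37) and GSTU20 (-1.49) lay below WT. Of 12 phi members, GSTF12 (1.80), GSTF6 (1.12) and GSTF7 (1.08) were higher and ATGSTF13 (-1.15) lower.

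Carbon genes were mostly above WT. Of 43 measured genes of sugar transport, starch and trehalose, 9 were called higher and 1 lower, against 3.05% and 1.95% of all genes. Their median was 0.44. SWEET13, a sucrose exporter of the phloem, read -1.65 and -1.67 in C3H17_OX and -4.68 in WT, an 8.08-fold difference. BAM5, a beta-amylase, read -0.43 and -0.38 in C3H17_OX and -3.35 in WT, a 7.70-fold difference over 2 probes. GPT2, a plastid glucose-phosphate importer induced by sugar, was 4.31-fold higher over 2 probes. SAG29 (2.84), a sugar transporter of senescing leaves, the raffinose pathway enzyme GolS2 (1.90), sucrose synthase SUS4 (1.39), SUC1 (1.16), SEX1 (1.05) and GolS3 (1.03) were called too. TPPB, a trehalose-phosphate phosphatase, differed by -1.46.

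Hypoxia genes gave 5 calls higher and none lower of 24, against 3.05% of all genes called higher, with a median of 0.35, and a median of -0.14 in atc3h17-1. The core hypoxia genes are switched on by ERF-VII factors when oxygen is low. FTM1, a plastid desaturase, read -0.51 and -0.56 in C3H17_OX and -2.06 in WT, a 2.88-fold difference over 2 probes. AT4G33070 was 2.70-fold higher. AT5G10040 (1.31) and AT3G10040 (1.03) were called with SUS4, while ADH1 (0.81) and HB1 (-0.06), a haemoglobin, were not. In atc3h17-1 minus WT, FTM1 differed by -0.09 and AT4G33070 by -0.66.

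In each list of abscisic acid metabolism and signalling, 1 gene was called higher and none lower, against 3.05% and 1.95% of all genes. The share called higher was 10% to 16.7% of the measured members per list. UGT71B6 (1.18), which conjugates the hormone, was the 1 call among 10 measured genes of synthesis and breakdown, PYL3 (1.91) among 10 receptors, and HB6 (1.26), a homeodomain transcription factor, among 10 kinases and transcription factors. The kinases SNRK2.2 (-0.16), SNRK2.3 (-0.29) and OST1 (0.38) were not called. NCED3, the limiting enzyme of synthesis, was detected in C3H17_OX only, at least 5.69-fold higher. All 6 measured clade A phosphatases, which turn the pathway off, lay above WT with a median of 0.88, and HAI1 read -1.37 and -1.35 in C3H17_OX and -3.71 in WT, a 5.12-fold difference. ABI1 (0.97) and HAB1 (0.99) lay at the edge of the threshold.

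Among the outputs, 8 of 22 measured dehydration genes were called higher and none lower, against 3.05% and 1.95% of all genes. Outside these counts, XERO1 was detected in WT only and was at least 2.16-fold lower in C3H17_OX. LTI65 and LEA4-5 were detected in C3H17_OX only, each at least 2.40-fold higher. COR15B and COR15A, chloroplast proteins of cold tolerance, were 6.41-fold and 4.32-fold higher. COR15B read -1.70 and -1.99 in C3H17_OX and -4.52 in WT. RD20 (2.46), LEA7 (1.79), P5CS1 (1.44), KIN2 (1.41), KIN1 (1.13) and RAB18 (AT5G66400, 1.40) were called. The 4 probes of RAB18 did not all point the same way: 3 differed by 2.29, 2.27 and 1.08 and 1 by -0.06. In the same list RD26 (0.11), ERD10 (-0.06) and COR47 (0.25) were not called. Of 15 CBF factors and targets, 7 were called higher, 4 of them (COR15A, COR15B, KIN1 and KIN2) already counted among the dehydration genes, with DREB1A, a cold-induced activator, at 1.34 and ICE1 at -0.65. Lipid transfer proteins form a separate list. Of 10 measured, 1 was called higher and 1 lower, 7 lay below WT, and the median was -0.17. In that list LTP3 was 3.03-fold higher, and LTP4, outside the measured members, was detected in C3H17_OX only, at least 44.4-fold higher.

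Pathogenesis-related and systemic resistance genes had a median difference of 0.56, and genes of salicylate synthesis and signalling one of 0.22. WRKY54, a regulator that limits salicylate synthesis, read -2.75 and -2.78 in C3H17_OX and -5.14 in WT, a 5.19-fold difference, and WRKY70 (1.14) and PBS3 (1.63), an enzyme that conjugates isochorismate, were also higher. EDS16, the isochorismate synthase, differed by 0.59, NPR1 by -0.02 and EDS1 by -0.26. NIMIN1 and SARD1, detected in C3H17_OX only, were at least 4.88-fold and 3.03-fold higher. Of 22 measured pathogenesis-related and systemic resistance genes, 18 lay above WT and 4 below. Of these 22, 7 were called higher and 1 lower, against 3.05% and 1.95% of all genes. PNP-A, PCC1 and MRD1, described above, are among the higher ones. PR1 had no probe well above background on all 3 arrays and was not measured. FMO1, which makes N-hydroxypipecolic acid, was 6.13-fold, BGL2 4.20-fold and ACD6 3.98-fold higher. PR5 (0.75), DIR1 (-0.93) and NUDT6 (-0.80) were not called, and EARLI1 (-1.20) was lower. None of 20 measured genes of pattern-triggered immunity was called, from WRKY29 (-0.55) to PHI-1 (0.91).

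Jasmonate outputs differed more than synthesis genes. Of 19 synthesis genes 2 were called, LOX2 (1.45) and JMT (1.18), and none of 11 JAZ repressors was. The LOX2 value averages 3 probes between 1.87 and 2.23 and 1 at -0.23. Outputs were larger: VSP2, a vegetative storage protein, read 1.77 and 1.73 in C3H17_OX and -1.36 in WT, an 8.66-fold difference over 2 probes, with VSP1 at 2.40 and NAC019 at 2.85. The defensins PDF1.2 (2.25) and PDF1.4 (-1.67) were called in opposite directions. TAT3 and THI2.1, detected in C3H17_OX only, were at least 6.93-fold and 6.13-fold higher.

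Ethylene genes had a median of -0.03 over 26 members, whose sign varied with the processing. ACS2 (1.64), the receptor ERS2 (1.61), ERF2 (1.24) and CTR1 (1.03) were called higher and ACS4 (-1.13) lower, against 3.05% and 1.95% of all genes. EIN2 (-0.18) and EIN3 (-0.08) were near WT. ERS2 read -0.18 and -0.44 in C3H17_OX and -1.92 in WT. Auxin genes had 1 call in each direction of 37, YUC6 (1.37) and IAA5 (-1.47), gibberellin genes none of 26, and brassinosteroid genes 1 of 19, PRE5 (-1.38). In these 3 lists the calls were few, as over all genes.

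Of 5 measured anthocyanin enzymes 3 were called higher, against 3.05% of all genes. Their median was 1.41, or 0.69 with the normal-exponential background correction. DFR, the first enzyme of that branch, read -2.26 and -2.34 in C3H17_OX and -5.14 in WT, a 7.14-fold difference, and GSTF12, which carries anthocyanins to the vacuole, was 3.47-fold higher over 2 probes. AT4G14090 differed by 1.41. Of 10 early flavonoid genes 1 was called, UGT78D1 (1.19), with TT4 (0.75), FLS1 (-0.30) and F3H (0.35) below the threshold. TT8 differed by 0.35 and MYB12 by 0.23. None of 22 phenylpropanoid and lignin genes was called. In atc3h17-1 minus WT, DFR differed by 3.26 and GSTF12 by 1.86.

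Senescence and NAC genes lay above WT in most cases. Of 25 measured dark-induced and senescence genes, 5 were called higher and 2 lower, against 3.05% and 1.95% of all genes. Their median was 0.46. SAG13 was detected in C3H17_OX only, at least 25.2-fold higher. The chlorophyll breakdown genes NYE1 (0.92), PPH (0.81), NYC1 (0.46) and ACD1 (0.42) were not called. DIN11 differed by -1.34, with 0.18 in atc3h17-1. Of 17 NAC factors 16 lay above WT with a median of 0.59, and NAC019 (2.85) and ANAC087 (1.15) were called.

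Other lists were close to the background. None of 25 chlorophyll and carotenoid genes, 24 clock genes, 29 wax and cutin genes, 19 measured unfolded protein response genes or 19 heat shock genes was called. Within the unfolded protein response BIP3, detected in C3H17_OX only, was at least 15.9-fold higher, while BIP1 (-0.51) and BIP2 (-0.24) lay slightly below WT. HSP23.6-MITO, detected in WT only, was at least 8.43-fold lower in C3H17_OX. None of 16 measured reference genes was called, and their median was -0.12.

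Seed and flowering genes had few measured members above the threshold. Of 21 seed storage and oil body genes, 4 were measured on the 3 arrays, 8 were detected in C3H17_OX only, 1 in WT only and 8 on none of the 3 arrays. The last included the storage proteins CRU2 and SESA1 to SESA5. The split between detection in C3H17_OX only and in WT only was not counted over all genes. CRA1 and CRU3, storage globulins, were at least 25.1-fold and 12.2-fold higher, and PER1, a peroxiredoxin of the seed, at least 5.65-fold. For OLEO2, EM1, OLEO1, PAP85 and HSD1 the bounds were 2.66-fold, 2.60-fold, 2.14-fold, 1.62-fold and 1.17-fold, and M10, detected in WT only, was at least 2.03-fold lower in C3H17_OX. Of 9 measured seed maturation regulators, 2 were called lower and none higher, against 1.95% and 3.05% of all genes, with a median of -0.04. The embryo regulator LEC1 was 3.97-fold lower at a low signal, reading -6.41 and -6.47 in C3H17_OX and -4.45 in WT. AGL15 differed by -1.05. FUS3 and ABI5, detected in C3H17_OX only, were at least 1.98-fold and 2.6-fold higher. LEC2, also detected there only, read -5.97 and -5.86, and -5.67 in WT, so no fold was taken. Of the flowering genes, AGL8 (1.52, 2 probes) and TOE3 (2.18-fold) were higher and AGL19 (-1.38) and AGL17 (-1.16) lower, with FLC at -0.73 over 3 probes and FT at -0.32. The floral organ genes AG (-1.22) and SEP1 (-1.17) were lower.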

How the data were processed

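Total RNA of whole seedlings, labelled with Cy3, was hybridised to 4 Agilent arrays of 1 slide, read in 1 scan, so no batch could be tested. The authors deposited scanner output of Agilent's Feature Extraction software (version 11.0.1.1 in the headers), with a background-subtracted and detrended linear intensity for each spot. The other deposited values used are marks of 0 or 1 that tell which spots are outliers, saturated or well above background. The array annotation build is TAIR10:Nov2010, per the file headers. The authors' value table holds the same intensities, neither scaled nor centred.

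Control and outlier spots were removed, intensities were divided by the array's 75th percentile (3407 and 3383 for the C3H17_OX arrays, 3487 for WT), log2 was taken and spots of a probe were averaged. No spot was saturated, and between 72% and 74.5% of spots were well above background. Of 43534 probes, 34288 matched 1 locus of the RefSeq table (TAIR10.1, used for names only) by accession, 9246 did not, and 30700 were well above background on the 3 arrays, 26872 of them with a locus. A gene's value is the mean of its probes.

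The difference is the mean of both C3H17_OX arrays minus WT. With 1 sample a group, no p-value was computed. For list members detected in 1 group only, a fold was bounded by the lowest signal well above background on the other array or the dim spot's own signal, whichever was higher. Genes named are C3H17, the 15 furthest from WT in each direction on the nearer array with all probes agreeing in sign, list members by size of difference, and list members with a bound of at least 4-fold. Other members and bounds were named to show the spread of a list. The 59 lists hold 1366 names, of which 8 were not matched. The members and lists were chosen with earlier results of these data known. The calling script was tested on simulated data. Promoter motifs were not analysed here. Python 3.11.15 with numpy 2.4.6 and pandas 2.3.3 was used.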

Additional observations from a re-analysis of the deposited data

Results flagged for a closer look

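Of the list members, 45 loci gave signal well above background on both C3H17_OX arrays but not on the WT array, and 7 the reverse. They therefore lie outside the counts of called genes. The lists were chosen with earlier results known, and this split was not counted over all genes. With probes well above background in at least 1 group, 873 of all 20180 genes were called higher and 557 lower. The WT array had the fewest spots well above background (72%, against 74.5% and 73.6% in C3H17_OX). The folds below are lower bounds, given for list members at least 4-fold higher. ELI3-2, of the cinnamyl alcohol dehydrogenase family, was at least 51.4-fold higher in C3H17_OX, LTP4, a lipid transfer protein, at least 44.4-fold and SAG13, a senescence gene, at least 25.2-fold. The seed genes CRA1, CRU3 and PER1 were at least 25.1-fold, 12.2-fold and 5.65-fold higher. The ER chaperone gene BIP3 was at least 15.9-fold and GSTU3 at least 9.10-fold higher. The jasmonate outputs TAT3 and THI2.1 were at least 6.93-fold and 6.13-fold higher, and the receptor-like kinase CRK36 at least 6.41-fold. NCED3 was at least 5.69-fold, NIMIN1, which binds NPR1, at least 4.88-fold, and UF3GT, an anthocyanin glycosyltransferase, at least 4.26-fold higher. ELI3-2 read -0.78 and -0.83 in C3H17_OX, -0.84 in atc3h17-1 and -6.63 in WT. CRA1 read -1.82 and -1.85 in C3H17_OX, -8.03 in atc3h17-1 and -8.38 in WT, and was not well above background in atc3h17-1. THI2.1 read -4.33 and -3.42 in C3H17_OX and -8.28 in WT, a wider gap between the C3H17_OX arrays than for the other genes of this paragraph.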

How the results depend on the processing

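No paired analysis was possible because the groups share fewer than 2 replicate numbers. Under the normal-exponential background correction 774 genes were higher and 223 lower, 4 root hair genes were lower, and the C3H17 differences were 0.69 for probe A_84_P221496, 1.99 for A_84_P803253 and 1.88 for A_84_P847169. With the position trend on the array removed, A_84_P847169 differed by 2.30. Without a filter on dim probes 994 genes were higher and 832 lower. At 1.5-fold the counts were 1663 and 1704, and at 3-fold 190 and 62. Among genes with 2 or more probes that all passed 2-fold they were 78 and 29. Leaving out either C3H17_OX array gave 648 to 663 higher and 421 to 434 lower. Of the 30 genes furthest from WT, GRX480 lost its call without the filter, where its mean difference was 1.09 in place of 3.53 and the arrays gave 1.39 and 0.80, and the other 29 kept theirs in all 10 processing alternatives. List medians changed sign in some alternatives for abscisic acid receptors, seed regulators, flowering repressors, ethylene, phenylpropanoid, flavonoid regulators, glucosinolate regulators, tau glutathione transferases, heat shock and wax genes, all with main medians within 0.30 of WT. The cause was not tested. The promoter motif search was not run. A single WT array limits every value here: no spread between seedling samples is known, and its repeated spots varied more than those of the other arrays.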
